A study of Mus musculus with 2 samples.

Results

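The transcripts described here are the long end of the adrenal transcriptome as the annotation defines it. They are transcript models of annotated mouse genes whose splice junctions match a whole annotated chain (class Known), with more than 1 exon, an annotated length over 5000 bases and at least 1 read in each of 2 libraries. The rule chose 812 transcripts of 788 genes, out of 12133 Known spliced transcripts read in both libraries and 22033 annotated transcripts with a Known model of any exon number in either. They were thus chosen by read counts and annotated lengths, so their reads, lengths and exon numbers are a description and were not tested. Replicate 2 held 1008 Known spliced transcripts over 5 kb and replicate 1 held 1296, so that 812 of the 1492 found in either library were shared.

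The gland was sampled from females of the hybrid strain B6CASTF1/J (C57BL/6J crossed with CAST/EiJ) at 36 days of age and sequenced as long reads, which can follow a cDNA over all of its junctions. Both libraries, numbered biological replicates 2 and 1 in the labels, form 1 group without treatment or transgene, so no condition is compared. The labels give a starting quantity of RNA for replicate 1 and none for replicate 2, and spike-in RNAs were added to both. The labels' donor entry is the same for both, whereas their sample descriptions number the animals differently, so the spread between libraries may be technical. Replicate 2 held 453761 reads, 414588 of them on annotated genes, and replicate 1 held 1223776 reads, 1144572 of them on annotated genes. Levels are counts per 1000000 reads of annotated genes (CPM), not divided by length because a read stands for a cDNA, and 3 reads, the limit that a count of 0 allows, equal 7.24 CPM in replicate 2 and 2.62 CPM in replicate 1. All 8 steroid cell markers were read in both libraries and summed to 82602 CPM in replicate 2 and 64329 CPM in replicate 1. The widest gap was in Cyp11a1, with 41366 CPM in replicate 2 and 20811 CPM in replicate 1. Hsd3b1 and Cyp11b2 were also higher in replicate 2, while Cyp21a1, Star, Cyp11b1, Nr5a1 and Mc2r were lower. The 8 chromaffin cell markers, also all read in both, summed to 7719 CPM in replicate 2 and 10716 CPM in replicate 1.

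A messenger RNA carries its coding sequence between a 5′ and a 3′ untranslated region (UTR), and its last exon usually holds the stop codon and the whole 3′ UTR. Cleavage and polyadenylation set its 3′ end, usually a short way behind a hexamer such as AATAAA or ATTAAA. Many mammalian genes have several such sites in the last exon, so that the same junctions can be followed by a short or a long 3′ UTR. Reverse transcription starts at the poly(A) tail and runs towards the 5′ end, and a cDNA that stops early lacks junctions at the 5′ end.

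The ends of 7 of these transcripts are shown as examples, because the annotated length turns on them. For each, the last 30 bases at the annotated end stand beside the last 30 bases at the end most often given to unannotated spliced models that used the same last splice acceptor. All are written 5′ to 3′ on the strand of the transcript, from the GENCODE M21 transcripts with coordinates of the build mm10. Capitals mark the last AATAAA or, where there was none, the last ATTAAA. The 7 are not a representative sample for these hexamers, since among their ends of unannotated models only that of G3bp1-201 lacks both in the 30 bases shown. Such ends of Sod2-201, Dnajc15-202, H13-204, Hnrnpu-201 and Ppp1cb-201, also among the most read transcripts, lacked both in their last 30 bases and are not shown. Over 279 members with such an end upstream, 52.3% had either hexamer in the last 40 bases, a longer window.
Rps15a-204, end of unannotated models (chr7:118109064-118109093, minus strand): agcataAATAAAaagcctttgtggactgtg
Rps15a-204, annotated end (chr7:118104372-118104401, minus strand): tgaataaAATAAAgcattttttttaaaacc
G3bp1-201, end of unannotated models (chr11:55500296-55500325, plus strand): tagagtttttcatgttttatttgtatttgt
G3bp1-201, annotated end (chr11:55504809-55504838, plus strand): ggtacctaccAATAAAtattcatggctgaa
Ppp2ca-201, end of unannotated models (chr11:52122707-52122736, plus strand): taaagaaaAATAAAgatcaaggccactgtg
Ppp2ca-201, annotated end (chr11:52127749-52127778, plus strand): actcAATAAActgtaaacaaatataccacc
Glo1-206, end of unannotated models (chr17:30592866-30592895, minus strand): ggctgaAATAAAgctaacactgtttagtac
Glo1-206, annotated end (chr17:30584936-30584965, minus strand): tcaattttatAATAAAatctattctccaaa
Cdc37-201, end of unannotated models (chr9:21139427-21139456, minus strand): tccAATAAAcagttccaggtgctggaggcc
Cdc37-201, annotated end (chr9:21133222-21133251, minus strand): taagccccaAATAAActtgccttctgtgaa
Sdf4-201, end of unannotated models (chr4:156010181-156010210, plus strand): aggtttATTAAAgatatgcttaataggcta
Sdf4-201, annotated end (chr4:156013581-156013610, plus strand): aataaaattaaaAATAAAtttttttcttaa
Soat1-207, end of unannotated models (chr1:156429793-156429822, minus strand): gatgaAATAAAtgactatgtgatcatttgt
Soat1-207, annotated end (chr1:156424525-156424554, minus strand): gataAATAAAtatatttagaaaaaaaaccc

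Members with 2 exons have a single junction, and a read needed only that junction to match the whole annotated chain. The 15 bases before it and, in capitals, the 15 bases after it are shown for 3 of the most read of them for that reason.
Btg1-201 junction: aggagctgctggcagAACATTACAAACATC
Chst2-201 junction: caccctccgctccagGTCCTTCTCGGAGCC
Irf2bp2-201 junction: acgggtctaaagcagTTGCAAGGACAGCAA
The introns removed there were 803 bp long in Btg1 (chr10:96617473-96618275, plus strand), which encodes an antiproliferative protein, and 103 bp in Chst2 (chr9:95406474-95406576, minus strand), a sulfotransferase. The intron was 611 bp long in Irf2bp2 (chr8:126591829-126592439, minus strand), a transcriptional corepressor.

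Most of the annotated length of these transcripts lay in the last exon. Their median length was 5951 bases (interquartile range 5386 to 6943, highest 40378), and their last exon had a median of 4242 bases, or 71.7% of the transcript, against 808 bases and 45.2% in the 11321 shorter Known spliced transcripts. The last exon made up more than 50% of the length in 631 of the 812 transcripts (77.7%), against 4886 of the shorter ones (43.2%), and was itself over 5000 bases in 259. The spliced distance between the first and the last junction, which is the stretch a read had to cover to match the chain, had a median of 1378 bases, against 676 bases in the shorter transcripts. It was under 1000 bases in 287 transcripts (35.3%), with 50.5% of all member reads in replicate 2 and 51.6% in replicate 1. Only 20 transcripts had junctions over 5000 bases apart, with 75 reads in replicate 2 and 62 in replicate 1.

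Coding sequence was under 50% of the annotated length in 640 of these transcripts. Of the 812 transcripts, 803 had an annotated coding sequence, with a median of 1788 bases or 28.1% of the length, against 53.1% in the shorter transcripts, and 3′ UTRs had a median of 3906 bases. In 27 transcripts the coding sequence alone exceeded 5000 bases, and in 58 it was under 10% of the length. The annotated biotype was protein_coding for 801 transcripts, retained_intron for 5, lincRNA for 3, nonsense_mediated_decay for 2 and bidirectional_promoter_lncRNA for 1. Exon number had a median of 11, against 7 in the shorter transcripts. There were 28 transcripts with 2 exons, 118 with 3 to 5, 220 with 6 to 10, 270 with 11 to 20 and 176 with more than 20.

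**Figure D1:**
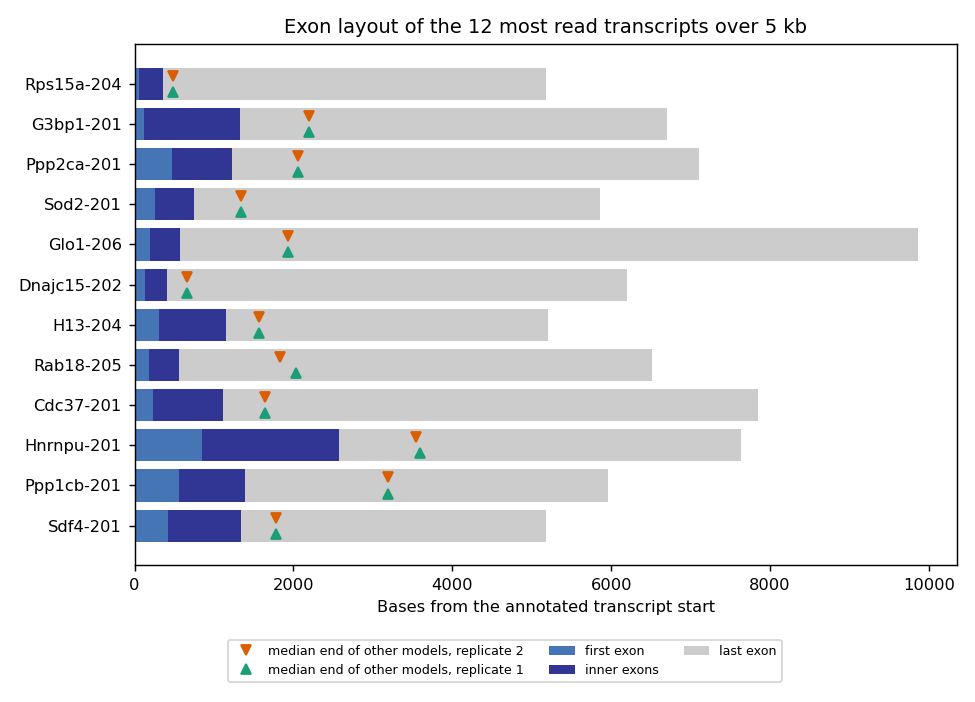
Exon layout of the 12 transcripts over 5 kb with the highest mean CPM, drawn in spliced bases from the annotated start, with the median end of unannotated models that use the same last acceptor (triangles, replicate 2 pointing down and replicate 1 pointing up). The last exon took between 66.3% and 94.2% of each transcript, and every triangle lies in its first 50%.

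The most read of these transcripts carry modest coding sequences ahead of long 3′ UTRs. Across the 12 with the highest mean CPM, the coding sequence ran from 390 to 2400 bases and the 3′ UTR from 3663 to 9205 bases, and the junctions spanned 274 to 1730 bases. Rps15a-204 (ENSMUST00000131374.7, chr7:118104372-118116188), for a protein of the small ribosomal subunit, had 213 reads in replicate 2 and 476 in replicate 1, a mean of 465 ± 69.2 CPM (SD, n = 2). Its 5 exons add up to 5179 bases, 390 of them coding. Ribosomal protein genes have many processed pseudogenes, and the sources used here do not say how reads of near-identical copies were assigned, so its level is uncertain.

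The next members bind RNA or remove phosphate from proteins. G3bp1-201 (chr11:55469685-55504838), for an RNA-binding protein of stress granules, had 150 reads in replicate 2 and 609 in replicate 1, or 447 ± 120 CPM. Ppp2ca-201 (chr11:52098681-52127778), for a catalytic subunit of protein phosphatase 2A, had 135 reads in replicate 2 and 637 in replicate 1, or 441 ± 163 CPM. Relative to depth both were lower in replicate 2. Ppp1cb-201 (chr5:32458843-32495523), for a catalytic subunit of protein phosphatase 1, had 52 reads in replicate 2 and 392 in replicate 1, or 234 ± 154 CPM, and was the least even of the 12. Hnrnpu-201 (chr1:178324343-178337797), for a nuclear RNA-binding protein, had 80 reads in replicate 2 and 321 in replicate 1, or 237 ± 61.9 CPM.

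Mitochondrial and detoxifying proteins were also among the 12. Sod2-201 (chr17:13007817-13020134), for the manganese superoxide dismutase of mitochondria, had 153 reads in replicate 2 and 393 in replicate 1, or 356 ± 18.2 CPM. Glo1-206 (chr17:30584936-30612659), for glyoxalase I, which detoxifies methylglyoxal, had 119 reads in replicate 2 and 361 in replicate 1, or 301 ± 20.1 CPM. At 9865 bases it was the longest of the 12, with 9205 bases of 3′ UTR after 552 coding bases. Dnajc15-202 (chr14:77820681-77874926), for a co-chaperone of the mitochondrial inner membrane, had 131 reads in replicate 2 and 294 in replicate 1, or 286 ± 41.8 CPM.

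The remaining 4 serve membranes and protein folding. H13-204 (chr2:152669461-152708670), for the signal peptide peptidase of the endoplasmic reticulum, had 110 reads in replicate 2 and 309 in replicate 1, or 268 ± 3.29 CPM, the closest agreement among the 12. Rab18-205 (chr18:6765145-6794429), for a small GTPase of lipid droplets and the endoplasmic reticulum, had 78 reads in replicate 2 and 364 in replicate 1, or 253 ± 91.8 CPM. Cdc37-201 (chr9:21133222-21149982), for the co-chaperone that brings kinases to Hsp90, had 84 reads in replicate 2 and 340 in replicate 1, or 250 ± 66.8 CPM. Both of these were lower in replicate 2 relative to depth. Sdf4-201 (chr4:155992911-156013610), for a calcium-binding protein of the Golgi, had 82 reads in replicate 2 and 307 in replicate 1, or 233 ± 49.8 CPM.

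Reads over the whole set were few and unevenly spread. In replicate 2 the 812 transcripts held 7349 reads, which is 1.77% of those of annotated genes (95% Wilson interval 1.73 to 1.81), and in replicate 1 they held 23217, or 2.03% (2.00 to 2.05). These intervals and the limits for a count of 0 cover counting error only, since no molecular identifiers are described. The median transcript had 3 reads in replicate 2 and 8.5 in replicate 1, and its mean level was 7.33 CPM, against 12.3 CPM for the shorter transcripts. At least 10 reads in each library were found for 174 (21.4%), against 3926 (34.7%) of the shorter ones, and 73 had a single read in each. The 10 most read transcripts held 17.0% of the reads of the set in replicate 2 and 17.7% in replicate 1. The 100 most read held 59.8% in replicate 2 and 63.3% in replicate 1.

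Within their genes, most of these transcripts were the leading annotated form. In 701 genes no other Known spliced transcript had more reads than the member in either library, and 45 transcripts led in neither. Ties, also those at a single read, were counted as leading, and members had been chosen for reads in both libraries. Of the 788 genes, 765 had 1 such transcript, 22 had 2 and 1 had 3. The gene with 3 was Tmem33, for a transmembrane protein of the endoplasmic reticulum. Its 8-exon form Tmem33-201 had 31 reads in replicate 2 and 106 in replicate 1, its 7-exon form Tmem33-204 had 11 in replicate 2 and 26 in replicate 1, and its 9-exon form Tmem33-202 had 4 in replicate 2 and 15 in replicate 1. Mprip, for a protein of actin fibres, had 27 reads of Mprip-202 in replicate 2 and 80 in replicate 1, and 23 reads of Mprip-204 in replicate 2 and 59 in replicate 1. Of the members with 2 exons shown by their junctions, Chst2-201 had 45 reads in replicate 2 and 173 in replicate 1 and Irf2bp2-201 had 13 in replicate 2 and 83 in replicate 1. The second form of Rps15a, Rps15a-207, had 3 reads in replicate 2 and 19 in replicate 1, far fewer than Rps15a-204. It is among 8 members whose intron chain also belongs to another annotated transcript, so reads of these could not be told apart by junctions.

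The 5 longest members were annotated with long last exons. D1Ertd622e-201 (chr1:97606318-97662074) was annotated at 40378 bases in 3 exons, 40044 of them in the last, and its junctions lay 90 bases apart. It had 3 reads in replicate 2 and 11 in replicate 1. Hnrnpr-207 (chr4:136310968-136359447), for a nuclear RNA-binding protein, was annotated at 21452 bases with a last exon of 20029 and had 7 reads in replicate 2 and 20 in replicate 1. In all 3 of the others the last exon also held most of the length. Serbp1-201 (chr6:67266624-67297736), for an RNA-binding protein of ribosomes, had 15474 bases and 16 reads in replicate 2 and 47 in replicate 1. BC004004-215 (chr17:29268825-29314065) had 13859 bases and 2 reads in replicate 2 and 1 in replicate 1, and Zfp704-201 (chr3:9427020-9610085), for a zinc finger protein, had 13834 bases and 2 reads in replicate 2 and 17 in replicate 1. At the other end, Btg1-201, with 77 reads in replicate 2 and 146 in replicate 1, and Rcsd1-202, with 5 in replicate 2 and 7 in replicate 1, were annotated 1 base over 5000 and lie just inside the limit. Fbxw8-201, with 19 reads in replicate 2 and 35 in replicate 1, and Mrpl19-201, with 5 in replicate 2 and 28 in replicate 1, were annotated at 5000 bases and lie just outside.

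A minority of the reads of other spliced models at the same last exon were on a model that ends near the annotated end. Known models carry the annotated coordinates in the files, for 812 of 812 members in both libraries, so the true ends of their reads are not given. Unannotated spliced models have a start and an end in the files, and each read is given the end of its model here. How these ends were set from the reads is not stated in the sources used here, and many lie on an annotated end, so the shares and medians describe model ends and not measured read ends. Those that used the last acceptor of a member were of the classes ISM (an unbroken stretch of an annotated chain with junctions missing at an end), NIC (known splice sites in an unannotated combination) and NNC (at least 1 unannotated splice site). They held 2318 reads in replicate 2, over 452 members, and 6296 reads in replicate 1, over 594 members.

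Their last exon had a read-weighted median of 887 bases in replicate 2 and 867 bases in replicate 1, where the annotated last exons of the same members had weighted medians of 3201 bases in replicate 2 and 3695 in replicate 1. In replicate 2, 695 of these 2318 reads, or 30.0%, were on a model ending within 100 bases of the annotated end (Wilson interval 28.2% to 31.9%), and in replicate 1 it was 1323 of 6296 (20.0% to 22.0%). Under shorter transcripts with a last exon over 1000 bases, the shares were 60.1% in replicate 2 and 44.9% in replicate 1. Under shorter transcripts with a last exon of 1000 bases or less, they were 76.6% in replicate 2 and 83.6% in replicate 1. Conversely, ends in the first 50% of the member's last exon held 62.5% in replicate 2 (60.5 to 64.4) and 71.7% in replicate 1 (70.6 to 72.8), against 25.4% in replicate 2 and 23.6% in replicate 1 under the shorter transcripts with a last exon over 1000 bases. Both libraries had the same order of the 3 sets, with the models at members furthest from the annotated ends. Members were chosen by annotated length, and their last exons are longer than in the other sets. There the weighted medians of annotated last exons were 1460 and 431 bases in replicate 2 and 1421 and 471 in replicate 1. A window of 100 bases is a smaller part of a longer exon, so the order follows in part from the choice and is a description. No test over samples is possible with 2 libraries of 1 group.

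**Figure D2:**
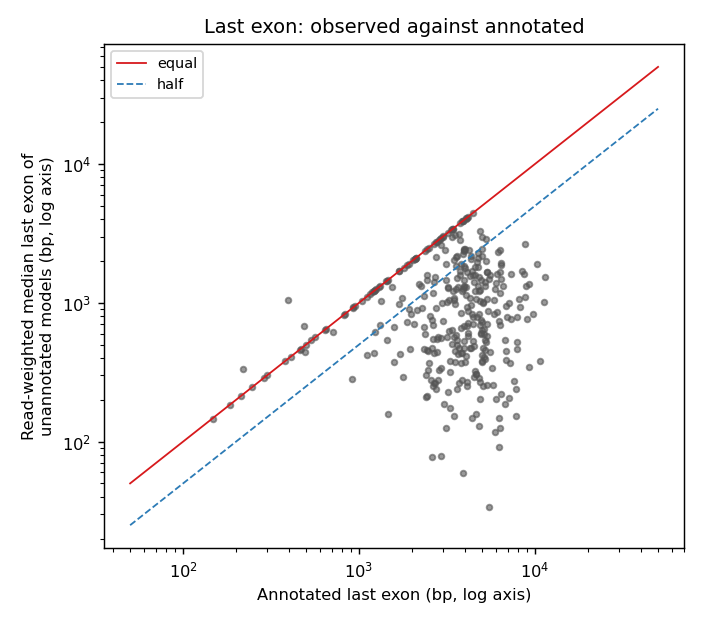
Read-weighted median last exon of unannotated spliced models against the annotated last exon, both in bases on log axes, for the 356 transcripts over 5 kb with at least 5 such reads over both libraries. The solid line marks equality and the dashed line 50%, and 250 points lie below the dashed line.

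By member, 632 of the 812 had such a model and 356 had at least 5 such reads over both libraries. In 250 of these 356 the median last exon was under 50% of the annotated one, in 150 it was under 20% and in 73 it was at least 90%. Rps15a models ended 130 bases into a last exon of 4822, and Dnajc15 models 256 bases into 5790. G3bp1 models ended at 867 of 5380 bases and H13 models at 415 of 4049. Each of these 4 values was the median in replicate 2 and in replicate 1. Rps15a models held only 6 reads in replicate 2 and 9 in replicate 1, and Dnajc15 models 14 and 13. G3bp1 models held 14 and 58 and H13 models 23 and 89, in the same order. Glo1 models, with 8 reads in replicate 2 and 12 in replicate 1, ended at 1361 of 9291 bases in both libraries. Sdf4 models, with 31 and 26 reads, ended at 437 of 3837, again in both. Ppp2ca models, with 13 and 41 reads, ended at 834 of 5877 bases in replicate 2 and 835 in replicate 1. Cdc37 models, with 15 and 41 reads, ended at 534 of 6742 in replicate 2 and 537 in replicate 1. Models of other members reached the annotated end. The median models of Col5a3 and Col4a2, for collagen chains, and of Gpam, for a glycerol-3-phosphate acyltransferase, ended exactly there in both libraries, at 929, 1229 and 3411 bases.

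Many of the upstream ends are themselves annotated for another transcript, as in Rps15a, Glo1, Sdf4, Soat1, Sod2, Dnajc15 and H13. Reads whose model ended at the end of any annotated transcript, the member itself included, were 72.6% in replicate 2 and 61.7% in replicate 1. Of the 279 members with at least 5 such reads whose most read end lay over 100 bases before the annotated end, 37.6% had AATAAA in the last 40 bases before it, and 52.3% had AATAAA or ATTAAA, read on the strand of the transcript alone. At the annotated ends of the same 279 members the shares were 66.3% and 79.2%, and in windows at the middle of the observed last exon 2.51% and 5.02%. Where the observed last exon is short, the middle window lies close to the splice acceptor. These windows were not matched to 3′ UTR sequence and are no background for it. Among the 126 ends on no annotated transcript end, 43 had AATAAA and 63 had either hexamer. Over all 812 annotated ends AATAAA was found in 66.1% and either hexamer in 81.3%, against 57.6% and 71.2% of the annotated ends of 11315 shorter transcripts. The last exon held AATAAA anywhere in 776 of the 812 members, at least 2 copies in 655, a median of 3 and at most 36. A matching hexamer is a description of these letters and shows no cleavage there.

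Models that the libraries assembled beyond the annotation were seldom as long as the members. Among NIC and NNC models of member genes, 130 of 853 (15.2%) in replicate 2 and 167 of 2191 (7.62%) in replicate 1 were over 5000 bases, with a median of 3007 bases in replicate 2 and 2719 in replicate 1. In all other annotated genes, 2.55% in replicate 2 and 1.07% in replicate 1 were over 5000 bases, with medians of 2016 bases in replicate 2 and 2017 in replicate 1. The longest such model of a member gene had 9889 bases in replicate 2 and 8046 in replicate 1.

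A smaller share of the reads of these genes was complete than elsewhere. Reads of Known, NIC and NNC models are called complete here, since their junction chains are not a part of an annotated one. Summed over the 788 genes they were 67.6% of 14302 reads in replicate 2 (interval 66.9 to 68.4) and 72.0% of 43053 in replicate 1 (71.5 to 72.4), against 76.0% in replicate 2 and 82.3% in replicate 1 in all other annotated genes. Member reads are counted in these shares and also chose the genes, so the shares are a description. The transcripts over 5 kb alone held 51.4% of the genes' reads in replicate 2 and 53.9% in replicate 1, and other Known models held 7.73% in replicate 2 and 9.42% in replicate 1. NIC models held 4.71% in replicate 2 and 4.86% in replicate 1, and NNC models 3.81% in replicate 2 and 3.75% in replicate 1. ISM held 16.1% in replicate 2 and 18.3% in replicate 1, where other genes had 16.2% in replicate 2 and 11.6% in replicate 1. The Genomic class, which overlaps a gene without a matching splice pattern, held 16.3% in replicate 2 and 9.73% in replicate 1, where other genes had 7.78% in replicate 2 and 6.16% in replicate 1. Among ISM reads that TALON notes as lacking the 5′ or the 3′ part of a chain, those lacking the 5′ part were 91.4% in replicate 2 and 63.9% in replicate 1, where other genes had 95.2% in replicate 2 and 81.8% in replicate 1.

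**Figure D3:**
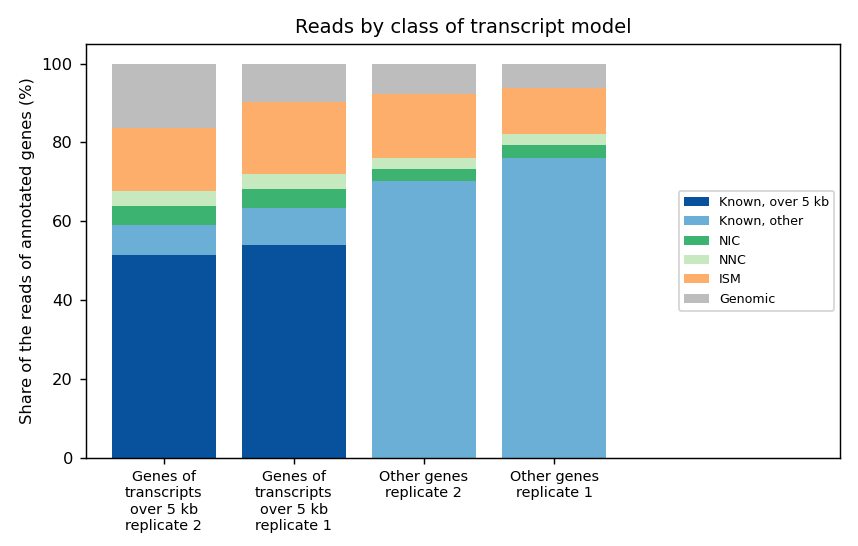
Shares of reads by class of transcript model, for the 788 genes of transcripts over 5 kb and for all other annotated genes, in both libraries. The Genomic share in the genes of long transcripts is 16.3% in replicate 2 and 9.73% in replicate 1, and in other genes 7.78% in replicate 2 and 6.16% in replicate 1.

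Per gene the median complete share was lower the longer the leading transcript. In 180 genes of members with at least 20 reads in each library, the median share was 74.3% in replicate 2 (interquartile range 56.5 to 87.7) and 77.9% in replicate 1 (58.7 to 90.0). Genes led by a Known transcript of 3 to 5 kb had medians of 77.3% in replicate 2 and 79.3% in replicate 1 over 745 genes. Genes led by 2 to 3 kb had 84.0% in replicate 2 and 87.2% in replicate 1 over 918 genes. Genes led by 1 to 2 kb had 89.3% in replicate 2 and 91.1% in replicate 1 over 1161, and genes led by up to 1 kb had 94.1% in replicate 2 and 93.8% in replicate 1 over 495. The step from 3 to 5 kb to over 5 kb was the narrowest in replicate 2 and in replicate 1, and the ranges of both classes overlap widely. The 180 values correlated between the libraries with Pearson's r = 0.778 across genes, which are not independent replicates.

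Among the long transcripts, the complete share went with junction distance more closely than with annotated length. Over 160 genes led by a member, Spearman's rho of the complete share was -0.43 with the junction distance in replicate 2 and -0.49 in replicate 1, and with the length of the last exon it was 0.40 in replicate 2 and 0.47 in replicate 1. With exon number it was -0.30 in replicate 2 and -0.38 in replicate 1, and with annotated length 0.12 in replicate 2 and 0.13 in replicate 1. These are descriptions across genes that share library and depth. With junctions under 500 bases apart, the median share was 87.3% in replicate 2 and 90.2% in replicate 1 over 28 genes. Genes led by 1 to 5 kb with the same junction distance had 90.2% in replicate 2 and 91.0% in replicate 1. From 1000 up to 2000 bases it was 73.9% in replicate 2 and 78.2% in replicate 1 over 48 genes, against 80.6% in replicate 2 and 84.8% in replicate 1. From 2000 up to 3000 bases it was 66.2% in replicate 2 and 68.0% in replicate 1 over 36 genes, against 73.2% in replicate 2 and 72.5% in replicate 1. At 3000 bases or more it was 33.3% in replicate 2 and 30.8% in replicate 1, over only 15 genes, against 57.7% in replicate 2 and 50.7% in replicate 1 over 41 genes. In all 5 classes of junction distance the genes of long transcripts had the lower median in both libraries, by 0.787 to 24.4 percentage points. The widest gap was in the open class, where distances are not matched: members reach 7386 bases and shorter transcripts 4467. Summed reads gave another order. Under 500 bases long transcripts had the higher share, 85.4% against 76.2% in replicate 2 and 89.1% against 82.6% in replicate 1. From 500 up to 2000 bases it was higher in replicate 2 alone, and from 2000 bases lower in both. By exon number the order was not even. In replicate 2 the median was 76.0% at 2 to 5 exons, 84.7% at 6 to 10, 71.3% at 11 to 20 and 61.3% above 20, and in replicate 1 it was 84.4%, 90.1%, 77.9% and 53.3% in the same order of exon number.

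**Figure D4:**
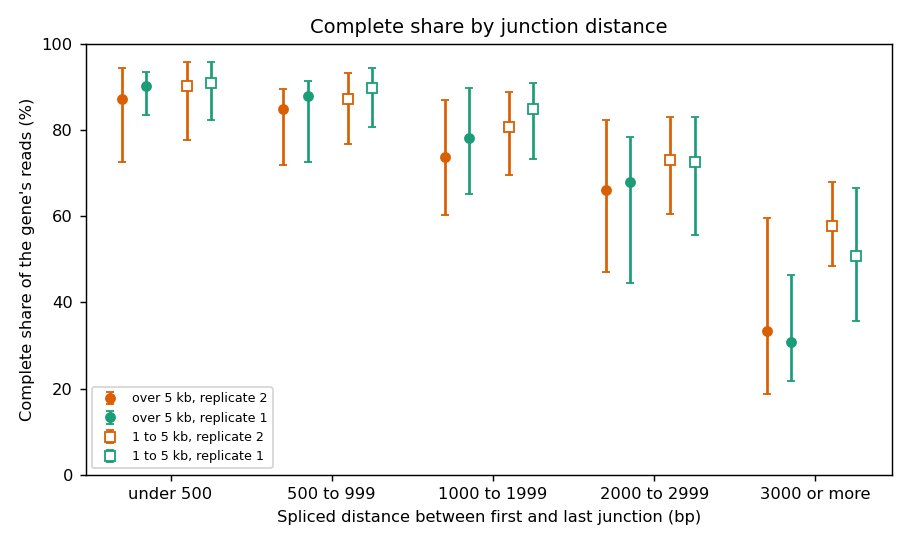
Median complete share per gene (points) with its interquartile range (bars) by the spliced distance between the first and the last junction, for genes led by a transcript over 5 kb (filled) and by a transcript of 1 to 5 kb (open) with at least 20 reads in each library. The share falls from left to right in both sets, to 33.3% in replicate 2 and 30.8% in replicate 1 for transcripts over 5 kb with junctions at least 3000 bases apart.

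Among 69 member genes with at least 50 reads in each library, the 5 highest complete shares belonged to genes with junctions at most 502 bases apart. Mrpl17, for a mitochondrial ribosomal protein, had 83 of 85 reads complete in replicate 2 (97.6%, Wilson interval 91.8 to 99.4) and 211 of 218 in replicate 1 (96.8%, 93.5 to 98.4). Rps15a had 217 of 227 complete in replicate 2 and 498 of 507 in replicate 1, and Dnajc15 had 147 of 154 in replicate 2 and 312 of 319 in replicate 1. Rab18 had 80 of 83 in replicate 2 and 372 of 390 in replicate 1, and Zfand5, for a zinc finger protein that binds ubiquitin, had 73 of 78 in replicate 2 and 330 of 339 in replicate 1. All 5 were at least 93.6% complete in both libraries.

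The 5 lowest shares belonged to genes with junctions 2558 to 7386 bases apart. Fasn, for fatty acid synthase, had the widest span of all, and 62 of its 318 reads were complete in replicate 2 (19.5%, 15.5 to 24.2), against 20 of 280 in replicate 1 (7.14%, 4.67 to 10.8). Most of the rest, 199 reads in replicate 2 and 213 in replicate 1, were ISM models that lack the 5′ part. Col5a3, with 67 exons the most of any member, had 9 of 71 complete reads in replicate 2 and 42 of 186 in replicate 1, and 49 reads in replicate 2 and 120 in replicate 1 again lacked the 5′ part. Col4a2, for a basement membrane collagen, had 8 of 101 complete in replicate 2 and 29 of 139 in replicate 1. There the libraries differed in what the other reads were, with 64 Genomic reads in replicate 2 and 0 in replicate 1, where up to 3 of 139 are allowed by the count. Gpam, with 21 of 77 reads complete in replicate 2 and 32 of 142 in replicate 1, had 44 Genomic reads in replicate 2 and 3 in replicate 1. Cluh, for a protein that binds messenger RNAs of mitochondrial proteins, had 11 of 61 complete in replicate 2 and 10 of 81 in replicate 1.

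The 20 transcripts with junctions over 5000 bases apart include large multidomain proteins, and those named next were chosen after their values were seen. Lamb2-201, for a laminin beta chain, had 6 reads in replicate 2 and 10 in replicate 1, and Lamb1-201, for another, had 4 in replicate 2 and 9 in replicate 1. Myh9-201, for nonmuscle myosin heavy chain, had 2 reads in replicate 2 and 8 in replicate 1. Sptbn1-201, for a beta spectrin, with junctions 6919 bases apart, and Lrrk2-201, for a large kinase, with 7305, had 1 read in each library. Apart from Fasn-201, no member of this group had more than 6 reads in replicate 2 or more than 10 in replicate 1.

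By function, the extracellular matrix list had members most often, with 11 of its 30 genes. Its members had a median of 48 exons and of 4911 bases between junctions, and 30.0% of the reads of the 11 genes were complete in replicate 2 and 48.1% in replicate 1. Col3a1-201 (chr1:45311538-45349706), for a fibrillar collagen, had 51 reads in replicate 2 and 249 in replicate 1. Col4a1-201 (chr8:11198423-11312826), for a basement membrane collagen, had 24 reads in replicate 2 and 69 in replicate 1, and 25 of 85 reads of its gene were complete in replicate 2 and 74 of 171 in replicate 1. Col5a1-201, with 66 exons, had 1 read in each library. Collagens code along most of their length, 4392 of 5564 bases in Col3a1-201 and 5007 of 6615 in Col4a1-201, unlike the most read members.

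Of 32 genes of adrenal cortex and sterol handling, 4 had a Known spliced transcript over 5 kb read in both libraries, and steroid enzymes were not among them. Soat1-207 (chr1:156424525-156474331), for the enzyme that esterifies cholesterol for storage, had 82 reads in replicate 2 and 167 in replicate 1, and 6537 of its 8371 bases are 3′ UTR. Its unannotated models ended 1323 bases into the last exon of 6591 in both libraries. Complete reads were 96 of 106 in replicate 2 and 203 of 267 in replicate 1. Gramd1b-201, for a carrier of cholesterol from the plasma membrane to the endoplasmic reticulum, had 24 reads in replicate 2 and 41 in replicate 1, and Srebf2-201, for a regulator of cholesterol synthesis, had 3 in replicate 2 and 1 in replicate 1. Among 30 genes of chromaffin cells and secretion only Rab3c, for a small GTPase of secretory vesicles, had a member, with 1 read in replicate 2 and 11 in replicate 1.

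Of 31 signalling genes, 7 had a member. Il6st-203, for the shared receptor chain of the interleukin 6 family, had 9 reads in replicate 2 and 4 in replicate 1. Members were found for 6 of 34 genes of cytoskeleton and motors, among them Kif5b-201, for a kinesin heavy chain, with 17 reads in replicate 2 and 23 in replicate 1. Kif5b was uneven between libraries, since its member held 17 of 33 reads of the gene in replicate 2 and 23 of 412 in replicate 1. Of 21 genes of endocytic receptors and the clathrin coat 5 had a member, among them Cltc-202, for the clathrin heavy chain, with 2 reads in replicate 2 and 8 in replicate 1, and Lrp5-201, for a Wnt coreceptor, with 1 in replicate 2 and 3 in replicate 1.

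The other lists held few. Of 18 ubiquitin ligases and deubiquitinases 3 had a member, with 36 reads of Nedd4-201, for a ubiquitin ligase, in replicate 2 and 82 in replicate 1, and with 7 reads of Usp47-201, for a deubiquitinase, in replicate 2 and 17 in replicate 1. A single member was found in each of 4 lists. Slc12a2-201, for a sodium, potassium and chloride cotransporter, among 26 channel and pump genes, had 1 read in replicate 2 and 14 in replicate 1. Ncoa1-201, for a nuclear receptor coactivator, among 36 chromatin genes, had 4 in replicate 2 and 1 in replicate 1, and Arfgef2-201, for an activator of Arf GTPases, among 21 membrane traffic genes, had 2 in replicate 2 and 3 in replicate 1. The fourth was better read. Eif4g2-213, for a translation initiation factor, among 25 symbols of RNA processing and translation, had 89 reads in replicate 2 and 155 in replicate 1. None of 14 long noncoding RNAs had one, and 12 of the 14 were read in both libraries. Transcripts of 1 exon could not become members under the rule, however many reads they had. The lists were drawn up with earlier results of these data known and do not stand for all large genes.

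Between the libraries, the reads of single transcripts were compared with the exact binomial test, two-sided, against the share that scaled depth gives, adjusted by Benjamini-Hochberg over 8081 Known spliced transcripts with at least 10 reads. The test compares these 2 libraries and no condition. Of 451 members tested, 48 differed (10.6%), against 13.2% of all transcripts tested. In replicate 2, 21 were higher (4.66%, against 6.06% of all) and 27 were lower (5.99%, against 7.13% of all). The median log2 ratio of replicate 2 to replicate 1 was -0.29 for members and -0.10 for shorter transcripts, with quartiles of -0.81 and 0.33 for members and -0.62 and 0.39 for shorter ones. The share of members that differed was close to the background. The medians depended on the minimum of reads. Without it, the median log2 ratio was 0.17 over 812 members, all read in both libraries, and -0.29 over 19947 transcripts, which include transcripts read in 1 library alone. In bulk tissue, fewer cells of a type and less RNA per cell cannot be told apart in any of these differences.

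**Figure D5:**
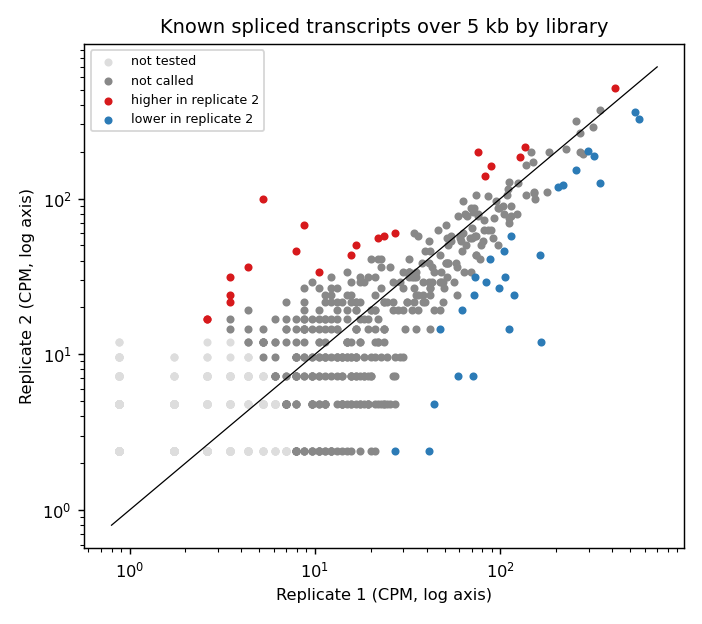
Level of each of the 812 transcripts over 5 kb in replicate 2 against replicate 1, in CPM on log axes, coloured by the call of the exact binomial test. Of 451 tested, 21 were called higher in replicate 2 (4.66%, against 6.06% of all transcripts tested). Another 27 were called lower in replicate 2 (5.99%, against 7.13% of all).

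Among called members with at least 50 reads, Acadsb-201, for an acyl-CoA dehydrogenase, was higher in replicate 2, with 24 reads in replicate 2 and 27 in replicate 1 (log2 ratio 1.33, adjusted p = 0.0126, exact binomial test). Pdcd6ip-201, for a protein of membrane scission, had 25 reads in replicate 2 and 31 in replicate 1 (1.19), and Timm17a-201, for a subunit of the mitochondrial import channel, had 67 in replicate 2 and 102 in replicate 1 (0.92). Fasn-201 had fewer than 50 reads, with 41 in replicate 2 and 6 in replicate 1. Its log2 ratio was 4.07 (adjusted p = 1.45e-16, exact binomial test). All reads of the gene were 318 in replicate 2 and 280 in replicate 1, not scaled to depth. Replicate 1 was the deeper library, so relative to depth the whole gene was also higher in replicate 2. The member held 12.9% of the gene's reads in replicate 2 and 2.14% in replicate 1. The 8 adipocyte markers, all read in both libraries, summed to 7796 CPM in replicate 2 and 4783 CPM in replicate 1. Fabp4 (2914 CPM in replicate 2 and 771 in replicate 1) and Cidea (1606 and 793) had the widest gaps in CPM. Adipoq, Plin4 and Cfd were slightly higher in replicate 2, and Plin1, Ucp1 and Lep were lower. The part of these markers in the Fasn difference was not tested.

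Among members with at least 50 reads, the lowest ratio belonged to Eprs-204, a retained_intron form of the glutamyl-prolyl-tRNA synthetase gene, with 5 reads in replicate 2 and 190 in replicate 1 (log2 ratio -3.61, adjusted p = 1.53e-16, exact binomial test). It made up 20.8% of the reads of Eprs in replicate 2 (9.24 to 40.5) and 82.6% in replicate 1 (77.2 to 87.0). Klf13-201, for a zinc finger transcription factor, had 3 reads in replicate 2 and 81 in replicate 1, a ratio of 0.107 (95% exact counting interval 0.0217 to 0.325). Hnrnpa3-203, for a nuclear RNA-binding protein with many pseudogene copies, had 2 reads in replicate 2 and 50 in replicate 1, a ratio of 0.116 (0.0136 to 0.441), and Appbp2-201, for a substrate receptor of a ubiquitin ligase, had 3 in replicate 2 and 68 in replicate 1, a ratio of 0.128 (0.0257 to 0.389). Ppp1cb-201 was also lower in replicate 2 (log2 ratio -1.37). Skeletal muscle markers summed to 4.82 CPM in replicate 2, with reads of 2 of 10 genes, and to 906 CPM in replicate 1, and none of the 10 genes has a member.

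Among the 12 most read, 5 were called besides Ppp1cb-201. Of all transcripts tested 13.2% were called, and of those with at least 20 reads 1059 of 5974. The 12 were chosen by reads, and the test can call smaller differences at higher counts, so their count of calls is a description. Rps15a-204 was higher in replicate 2 (log2 ratio 0.37), and Ppp2ca-201 (-0.70), Rab18-205 (-0.69), G3bp1-201 (-0.49) and Cdc37-201 (-0.48) were lower. Of the lists, extracellular matrix had 7 members tested and 1 called, Col3a1-201, lower in replicate 2 (-0.75), with a list median of -0.12. The 8 stroma markers, Col3a1 among them, summed to 381 CPM in replicate 2 and 586 CPM in replicate 1, and their part in its difference was not tested. Sterol handling had 3 tested, with Fasn-201 higher, signalling had 3 tested and 1 called in each direction, with Il6st-203 higher (2.40), and RNA processing had 1 tested, Eif4g2-213, higher (0.73). The other lists had 8 members tested in all and none called. The calls of Btg1-201 (0.61), Rps15a-204, Cdc37-201 and Irf2bp2-201 (-1.12) were lost under at least 1 other setting of depth scaling or read minimum.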

How the data were processed

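The deposited counts of whole reads per transcript model were used without normalization by the authors; models were numbered and built for each library separately. Per the file headers and accompanying notes, models were made on mm10 with GENCODE M21, and the annotation files name TALON as their source; the sources used here give no aligner, tool version or filter. Model lengths, exon numbers, classes and positions were taken as deposited. Exon layout, coding length, biotypes and sequences came from GENCODE M21. Levels are CPM over reads of annotated genes; log2 ratios used TMM factors of 0.976 in replicate 2 and 1.02 in replicate 1 (edgeR 4.0.16 in R 4.3.3) and a pseudocount of 1 CPM. Tests and intervals used SciPy 1.17.1, with a threshold of 0.05 and 95% intervals, and the test was checked on simulated data. A count model with replicates could not be fitted between single libraries.

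The transcripts, lists and tests were chosen with earlier results of these data known. Named were the 12 most read transcripts, the 5 longest, those with the most and the fewest exons (4 each), the 2 highest of each of 12 lists, genes with most members, the 4 largest and 4 smallest called ratios, the 5 highest and 5 lowest complete shares, and the lengths beside the limit. Some transcripts taken by this rule are left out of the text. Gene symbols of 19 list entries had no reads or no match. Alternatives were another length limit, read minimum, scaling and definition of complete; the analysis of ends was added after seeing the data. No protein or promoter sequence was used.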

Additional observations from a re-analysis of the deposited data

How the results depend on the processing

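No paired analysis was possible because both libraries belong to 1 group. The number of transcripts, 812, became 1850 with a length over 4000 bases, 393 with a length over 6000 and 287 with at least 5 reads in each library, all by construction, and was 1008 to 1296 with either library alone. Their mean read share, 1.90%, was 2.79% of the reads of Known spliced models and 0.993% with a length over 6000, and 1.77% to 2.03% with either library alone. The mean of the libraries' median complete shares, 76.1%, was 67.4% with Known models alone, 90.6% over models of more than 1 exon, 69.0% with at least 5 reads a gene, 82.8% with at least 50, 72.8% over summed reads, 88.3% without Genomic reads (added after seeing the data) and 74.3% to 77.9% with either library alone; why it varied with the read minimum was not tested. The share of unannotated reads on models ending in the first 50% of the last exon, 67.1%, was 78.0% for NIC and NNC alone, 87.6% without annotated ends and 62.5% to 71.7% with either library alone, all chosen after seeing the data. The 48 calls were 39 to 52 under 4 settings. For 22 named transcripts, 82 of 87 calls stayed on their side of the threshold, 5 did not pass and 0 reversed. The median log2 ratio of members, -0.29, was 0.17 with no minimum of reads. Depth limits single values, since 217 members had 1 read in replicate 2.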
